A study of Homo sapiens with 15 samples.

Results

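The genes described here encode 10 co-chaperones of HSP90, AHSA1, CDC37, PTGES3, STIP1, FKBP4, FKBP5, PPID, PPP5C, UNC45A and CHORDC1. They were taken by gene symbol from 2 tables of RNA-seq values of K562 cells, and all 10 were found in each, among 17769 genes with an identifier in the table of the knockouts and 60510 in that of the resistant cells. All 10 also passed the filter on low values in both tables.

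K562 is a BCR-ABL1-positive chronic myeloid leukemia cell line. The knockout table holds 9 libraries, 3 each of an empty vector control (EV), of HSP90α-KO cells and of HSP90β-KO cells. These cells carried Cas9 and a lentiviral vector, with a guide RNA in the knockout groups, were sorted on the fluorescent marker and were selected as single clones, so an effect of the genotype and of the clone cannot be told apart. The resistance table holds 6 libraries, 3 of cells made resistant to the HSP90 inhibitor PU-H71 by long treatment with rising doses and then picked as clones (PUHr), and 3 of parental cells kept alongside in the solvent DMSO. Clone and resistance cannot be told apart there either. Each library held between 19594381 and 26216730 assigned reads. Levels are in CPM, the reads of a gene scaled to the depth of its library and by a further normalization factor per library. On this scale 1 read was worth between 0.0381 and 0.0518 CPM. Through the factor the CPM of a library summed to between 972360 and 1030870, so these levels differ from scaling to total reads alone. The study calls the replicates independent, and the labels do not say whether they were separate cultures, so p-values measure the spread between these libraries. Between libraries of a group, the chi-square per degree of freedom of the reads was 1.15 to 3.03 in the knockout table. In the resistance table it was 1.22 to 3.86. Read sampling alone gives a value near 1. The lowest values were within HSP90β-KO and parental, so groups fitted together differed in spread. In bulk RNA, fewer cells that express a gene and less RNA per cell cannot be told apart.

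HSP90 is an ATP-driven chaperone that folds and keeps active a set of client proteins, among them kinases and steroid hormone receptors. The cytosol holds the inducible HSP90α, encoded by HSP90AA1, and the constitutive HSP90β, encoded by HSP90AB1. Co-chaperones bind HSP90 at set points of its ATPase cycle, where they bring clients, slow or speed up ATP hydrolysis, or act on clients as peptidyl-prolyl isomerases or phosphatases.

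The guides fix what the knockout groups are, and both are shown from 5′ to 3′ in lower case, with the adjacent PAM of the genome in capitals. The HSP90AA1 guide matched GRCh38 at chr14:102086342-102086361 on the minus strand, in the coding part of exon 2 of the 11 exons of the canonical transcript. The HSP90AB1 guide matched chr6:44248749-44248768 on the minus strand, opposite to the gene, in the coding part of exon 2 of 12.
HSP90AA1 guide: gacccaagaccaaccgatggAGG
HSP90AB1 guide: cattagagatcaactcccgaAGG

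The targeted genes were read first. HSP90AA1 was at 716, 683 and 713 CPM in the 3 EV libraries, at 92.6, 88.0 and 90.8 CPM in HSP90α-KO and at 1218, 1190 and 1210 CPM in HSP90β-KO. The transcript thus fell in the HSP90α-KO libraries, with a log2 fold change of -2.96 (SE 0.029, adjusted p = 2.6e-30) from EV, and rose in HSP90β-KO, with 0.78 (SE 0.029, adjusted p = 2.1e-17). HSP90AB1 was at 2823, 2782 and 2812 CPM in EV, at 1939, 1909 and 1889 CPM in HSP90β-KO and at 3267, 3310 and 3344 CPM in HSP90α-KO. Its log2 fold change from EV was -0.55 (SE 0.025, adjusted p = 1.3e-15) in HSP90β-KO, a smaller loss of transcript than that of HSP90AA1 in its own knockout, and 0.24 (SE 0.025, adjusted p = 8.6e-09) in HSP90α-KO. Both genes have processed pseudogenes of like sequence, so a share of their reads could be assigned elsewhere.

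In the resistance table HSP90AA1 was at 1721, 1720 and 1696 CPM in parental and 1559, 1592 and 1553 CPM in PUHr libraries, and HSP90AB1 at 4578, 4497 and 4517 against 3953, 3760 and 3828 CPM. Both were lower in PUHr in each library, with log2 fold changes of -0.13 (SE 0.019, adjusted p = 4.7e-05) and -0.24 (SE 0.020, adjusted p = 1.9e-07).

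The co-chaperone transcripts changed by less than HSP90AA1 did in HSP90α-KO. In no comparison did a member pass an adjusted p of 0.05 together with a log2 fold change beyond 1 in limma's test, and none did at an unadjusted p under 0.05 with that fold or in voom on recovered reads. Of all genes tested, 10.3% passed both thresholds in HSP90α-KO against EV, 4.48% in HSP90β-KO against EV, 12.7% between the knockouts and 10.1% in PUHr against parental. The largest change of a member was that of PPID between the knockouts, at -0.64. Counts that pass, rise or fall use from here on an adjusted p under 0.05 from limma alone.

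In HSP90α-KO against EV, 5 of the 10 members passed, close to the 54.2% of all genes tested. The members are abundant transcripts, and of the 6071 genes that average at least 5 on the log2 CPM scale 66.2% passed, 38.7% as higher and 27.5% as lower. UNC45A, FKBP4 and PTGES3 were higher, beside 27.5% of all genes, and PPID and CDC37 were lower, beside 26.6%. The members' median log2 fold change was 0.0078, and that of all genes -0.010.

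In HSP90β-KO against EV, 7 of the 10 passed and all 7 were higher, namely PPID, PPP5C, UNC45A, PTGES3, AHSA1, STIP1 and FKBP4. Among all genes 17.2% were higher, 17.2% were lower and 34.4% passed in either direction. Of the 6071 abundant genes 43.9% passed and 23.7% were higher. The median of the members was 0.16, that of all genes 0.0016, and 9 of the 10 estimates were positive, or 8 of 10 under quantile normalization and under median centring, where CHORDC1 turned negative. CHORDC1 also turned negative without EV replicate 2 and without HSP90β-KO replicate 2. Both comparisons share the EV libraries, so a direct contrast was used for the difference between the knockouts. In it PPID, CDC37, PPP5C, AHSA1 and STIP1 were lower in HSP90α-KO than in HSP90β-KO, and UNC45A and FKBP4 were higher, 7 of 10 beside 59.9% of all genes, of which 29.8% were lower and 30.1% higher, and beside 72% of the abundant genes.

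In PUHr against parental, 5 of the 10 passed, again close to the 51.4% of all genes and below the 62.9% of 6170 abundant genes, of which 35.9% were lower and 27% higher. FKBP4, FKBP5, PPP5C, CDC37 and STIP1 were lower, beside 25.8% of all genes, and no member was higher, beside 25.6%. By unadjusted p under 0.05 no member was higher either, while under 2 other scalings, quantile normalization and scaling to total reads, PTGES3 passed as higher (adjusted p = 0.002 and 0.00152, range over alternatives 0.00152 to 0.949). The members' median log2 fold change was -0.078 and that of all genes 0.0047.

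**Figure D1:**
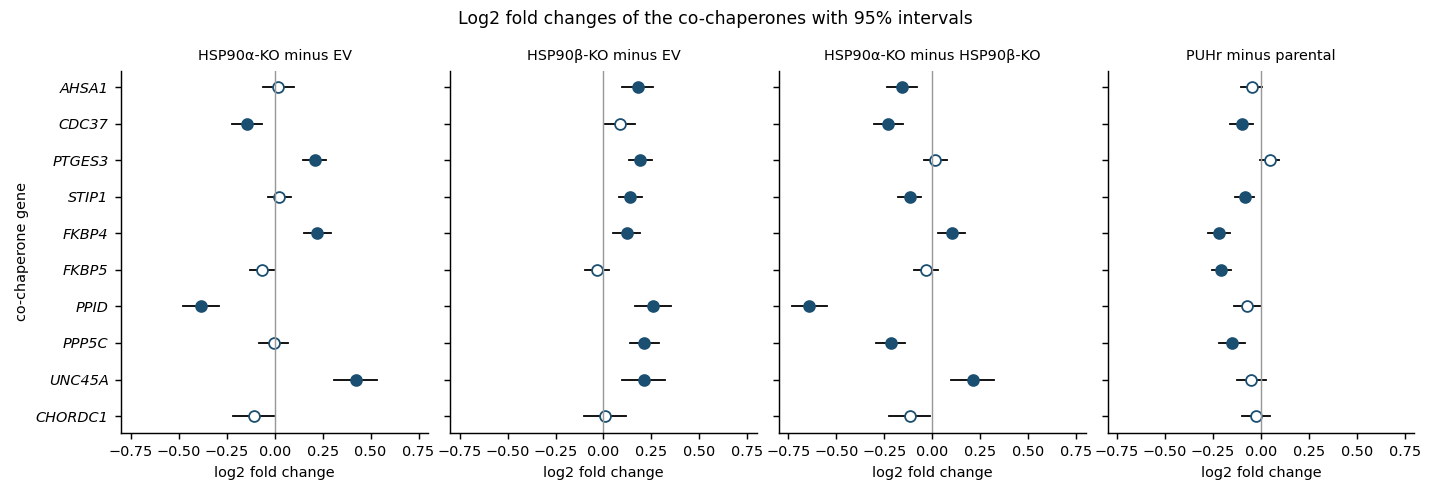
Log2 fold change of each co-chaperone in the 4 comparisons, with 95% intervals from limma. Filled points passed an adjusted p of 0.05 and open points did not, and the PPID estimate moves from -0.38 in HSP90α-KO to 0.26 in HSP90β-KO, both against EV.

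AHSA1 (ENSG00000100591, chr14:77457870-77469472, plus strand, GRCh38) encodes AHA1, the activator of the HSP90 ATPase. Its level was 68.6, 66.6 and 67.2 CPM in EV, 66.9, 67.6 and 70.6 CPM in HSP90α-KO and 75.8, 74.8 and 78.3 CPM in HSP90β-KO. The HSP90β-KO libraries all lay above the other 6, whereas the EV and HSP90α-KO libraries overlapped. The gene rose in HSP90β-KO with a log2 fold change of 0.18 (SE 0.038, adjusted p = 0.00062), a 1.13-fold level. In HSP90α-KO the value was 0.019 (95% interval -0.060 to 0.099, adjusted p = 0.69), and the 2 knockouts differed by -0.16 (SE 0.038, adjusted p = 0.00091). In the resistance table it was at 161, 162 and 166 CPM in parental and 159, 157 and 158 CPM in PUHr. These groups did not overlap, but the log2 fold change of -0.047 (95% interval -0.10 to 0.0073, adjusted p = 0.14) did not pass the test. It passed under median centring (-0.094, adjusted p = 0.0129) and turned to 0.011 under scaling to total reads, with a range of 0.0129 to 0.758 over alternatives.

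CDC37 (ENSG00000105401, chr19:10391133-10420121, minus strand) encodes the adaptor that brings protein kinases to HSP90. EV libraries held 283, 300.2 and 297 CPM, HSP90α-KO libraries 282, 260.5 and 254 CPM and HSP90β-KO libraries 298, 312 and 324 CPM. All HSP90α-KO libraries lay below all EV libraries, though by little for replicate 1, and the HSP90β-KO libraries overlapped EV. CDC37 fell in HSP90α-KO with a log2 fold change of -0.14 (SE 0.037, adjusted p = 0.0018), a call that was lost without the intensity trend (adjusted p = 0.0592, range over alternatives 1.94e-05 to 0.0592). For HSP90β-KO the value was 0.086 (95% interval 0.010 to 0.16, adjusted p = 0.074), which passed in a fit without HSP90α-KO replicate 1 (adjusted p = 0.0309), HSP90α-KO replicate 3 (adjusted p = 0.038) or HSP90β-KO replicate 1 (adjusted p = 0.0359), with the 6 compared libraries alone (0.0201), under scaling to total reads (0.0173) and in voom (0.0429), and over all alternatives the adjusted p ranged from 0.0173 to 0.385. The direct contrast of the knockouts gave -0.23 (SE 0.037, adjusted p = 6e-06). In PUHr, with 270.0, 287 and 281 CPM against 307, 299.7 and 292 CPM in parental, it fell by 0.10 on the log2 scale (adjusted p = 0.0071), a call lost under quantile normalization (adjusted p = 0.105), under scaling to total reads (0.192) and without the trend (0.0925).

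PTGES3 (ENSG00000110958, chr12:56663341-56688408, minus strand) encodes p23, which binds the ATP-bound closed form of HSP90 and slows hydrolysis. The transcript was at 396, 393 and 390.2 CPM in EV, at 438, 454 and 469.7 CPM in HSP90α-KO and at 449.8, 446 and 451 CPM in HSP90β-KO. Every knockout library lay above every EV library. The increases were alike in size, 0.21 (SE 0.028, adjusted p = 6.7e-07) and 0.19 (SE 0.028, adjusted p = 5.4e-06), and the direct contrast was 0.017 (95% interval -0.042 to 0.075, adjusted p = 0.64). That contrast reversed and passed under quantile normalization, at -0.11 (adjusted p = 0.0019, range over alternatives 0.0019 to 0.829). PUHr libraries, at 641, 673 and 639 CPM, lay above parental ones, at 622, 637 and 632 CPM, with a value of 0.045 (95% interval -0.0058 to 0.096, adjusted p = 0.13), a positive estimate that turned to -0.0021 under median centring.

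STIP1 (ENSG00000168439, chr11:64185272-64204543, plus strand) encodes HOP, which links HSP70 and HSP90 and passes clients from one to the other. It was at 252, 251 and 255 CPM in EV and at 261, 252 and 259 CPM in HSP90α-KO, which overlapped, and at 275, 275 and 286 CPM in HSP90β-KO, above all 6 others. The log2 fold changes from EV were 0.025 (95% interval -0.036 to 0.085, adjusted p = 0.5) in HSP90α-KO and 0.14 (SE 0.029, adjusted p = 0.0004) in HSP90β-KO, with a direct contrast of -0.12 (SE 0.029, adjusted p = 0.0013). In the resistance table parental libraries held 459, 459 and 444 CPM and PUHr libraries 432, 429 and 422 CPM. The fall of 0.086 on the log2 scale passed (adjusted p = 0.0055), but depended on the scaling, with 0.0035 under quantile normalization (adjusted p = 0.893) and -0.028 under scaling to total reads (adjusted p = 0.28), and was not called without the trend (adjusted p = 0.0855). The adjusted p ranged from 0.000198 to 0.893 over the alternatives.

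The immunophilins FKBP4, FKBP5 and PPID carry a peptidyl-prolyl isomerase domain and a tetratricopeptide repeat domain that docks on the HSP90 tail, and compete for it in steroid receptor complexes. FKBP4 (ENSG00000004478, chr12:2794970-2805423, plus strand) encodes FKBP52, which favours hormone binding and nuclear transport of the glucocorticoid receptor. Its level was 112, 113 and 109.6 CPM in EV, 136, 128 and 127 CPM in HSP90α-KO and 122, 120.4 and 121 CPM in HSP90β-KO, without overlap between any 2 groups. FKBP4 rose in both knockouts, by 0.22 (SE 0.034, adjusted p = 4.4e-06) in HSP90α-KO and 0.12 (SE 0.034, adjusted p = 0.0074) in HSP90β-KO on the log2 scale. The second call was lost under median centring (0.078, adjusted p = 0.084, range over alternatives 0.00138 to 0.084). The difference between the knockouts, 0.10 (SE 0.034, adjusted p = 0.013), did not pass without HSP90α-KO replicate 1 (0.071, adjusted p = 0.0922) or under quantile normalization (adjusted p = 0.341) and scaling to total reads (0.376).

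In the resistance table FKBP4 went the other way, from 178, 175 and 182 CPM in parental to 155, 154 and 150.5 CPM in PUHr. The log2 fold change was -0.22 (SE 0.026, adjusted p = 6.7e-06), a 0.859-fold level, the largest change of a member in that comparison, and it passed under every alternative run.

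FKBP5 (ENSG00000096060, chr6:35573585-35728583, minus strand) encodes FKBP51, which lowers the hormone affinity of the glucocorticoid receptor and is itself a well-known glucocorticoid-induced gene. In the knockout table it was at 186, 178 and 181 CPM in EV, 174, 171 and 175 CPM in HSP90α-KO and 174, 179 and 179 CPM in HSP90β-KO. The HSP90α-KO libraries lay below the EV libraries and the HSP90β-KO libraries overlapped them. Neither difference passed, with -0.067 (95% interval -0.13 to -0.0032, adjusted p = 0.07) and -0.034 (95% interval -0.097 to 0.029, adjusted p = 0.43). The first passed without EV replicate 2 (-0.081, adjusted p = 0.0415), under quantile normalization (adjusted p = 0.000356) and under scaling to total reads (0.00452), within a range of 0.000356 to 0.23 over alternatives. The direct contrast was -0.033 (95% interval -0.096 to 0.031, adjusted p = 0.37), which passed under quantile normalization (-0.11, adjusted p = 0.00307) and scaling to total reads (-0.099, adjusted p = 0.0074) and turned to 0.010 under median centring, with a range of 0.00307 to 0.804 over alternatives. In PUHr FKBP5 was at 205, 201 and 206 CPM against 235, 236 and 236 CPM in parental, and fell with a log2 fold change of -0.21 (SE 0.024, adjusted p = 3.6e-06), under every alternative run.

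PPID (ENSG00000171497, chr4:158709127-158723396, minus strand) encodes cyclophilin 40, the cyclophilin of the group. Its difference between the knockouts was the largest of any member. EV libraries held 79.0, 73.8 and 80.7 CPM, HSP90α-KO libraries 55.8, 59.2 and 64.2 CPM and HSP90β-KO libraries 93.1, 93.9 and 92.0 CPM. The 3 groups did not overlap, with HSP90α-KO lowest and HSP90β-KO highest. PPID thus fell in HSP90α-KO, at -0.38 (SE 0.045, adjusted p = 6e-08), a 0.767-fold level, and rose in HSP90β-KO, at 0.26 (SE 0.045, adjusted p = 5.5e-05). The direct contrast was -0.64 (SE 0.045, adjusted p = 2.2e-12), and each of these calls passed under every alternative run. Among all genes tested, 77.0% had a smaller absolute change between the knockouts. The resistance libraries differed less, with 85.9, 89.3 and 84.2 CPM in parental, 82.4, 80.5 and 84.0 CPM in PUHr and a value of -0.071 (95% interval -0.14 to 0.0012, adjusted p = 0.093). Under median centring it passed, at -0.12 (adjusted p = 0.0115, range over alternatives 0.0115 to 0.77).

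**Figure D2:**
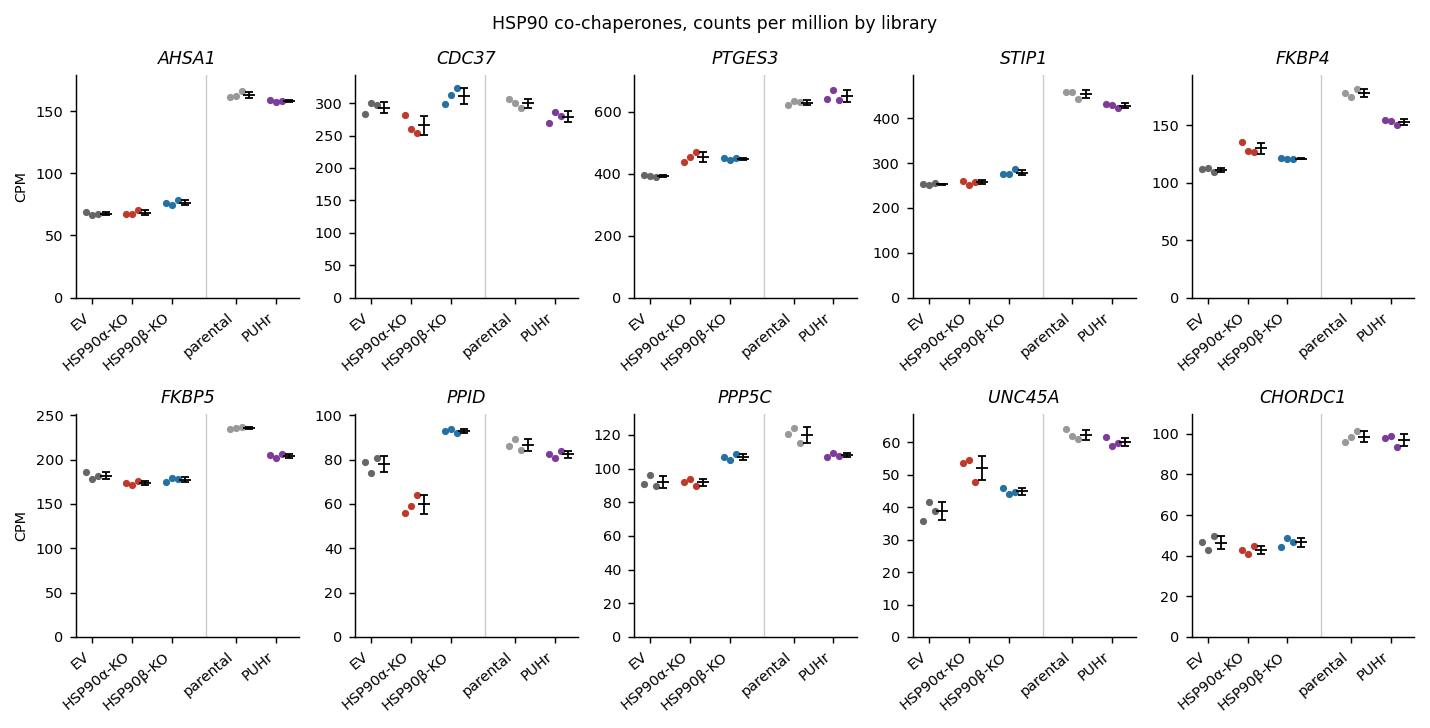
Level of each co-chaperone in CPM, 1 panel a gene with its own axis from 0. Points are libraries, the bars beside them the mean and SD of 3, and the grey line parts the 2 tables, which were normalized separately, with the 3 HSP90α-KO libraries of PPID between 55.8 and 64.2 CPM.

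PPP5C (ENSG00000011485, chr19:46347087-46392981, plus strand) encodes protein phosphatase 5, which acts on CDC37 and on clients held by HSP90. Its values were 91.1, 96.2 and 89.4 CPM in EV, 91.9, 94.1 and 89.9 CPM in HSP90α-KO and 107, 105 and 108 CPM in HSP90β-KO. The first 2 groups overlapped and the HSP90β-KO libraries lay above both. The rise in HSP90β-KO was 0.21 (SE 0.037, adjusted p = 4.3e-05) on the log2 scale, the value for HSP90α-KO was -0.0038 (95% interval -0.079 to 0.072, adjusted p = 0.94), and the direct contrast was -0.22 (SE 0.037, adjusted p = 1.3e-05). In PUHr the gene fell, from 120.3, 124 and 115 to 107, 109 and 107 CPM, with a log2 fold change of -0.15 (SE 0.032, adjusted p = 0.0012).

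UNC45A (ENSG00000140553, chr15:90930180-90954093, plus strand) encodes a co-chaperone that serves myosin folding and steroid receptor complexes. It was at 35.9, 41.7 and 38.9 CPM in EV, 53.7, 54.6 and 47.9 CPM in HSP90α-KO and 45.9, 43.9 and 44.8 CPM in HSP90β-KO. All knockout libraries lay above EV, and those of HSP90α-KO were highest. The rise of 0.42 (SE 0.054, adjusted p = 2.5e-07) in HSP90α-KO, a 1.34-fold level, was the largest change of a member against EV. In HSP90β-KO it was 0.21 (SE 0.054, adjusted p = 0.0034), which was lost without the intensity trend (adjusted p = 0.0633, range over alternatives 0.000564 to 0.0633), and the knockouts differed by 0.21 (SE 0.054, adjusted p = 0.0015). Parental libraries, with 64.1, 61.9 and 61.0 CPM, and PUHr libraries, with 61.5, 59.0 and 59.9 CPM, overlapped, and the value was -0.051 (95% interval -0.13 to 0.026, adjusted p = 0.25), which passed under median centring (-0.098, adjusted p = 0.0386, range over alternatives 0.0386 to 0.883). The antisense gene RCCD1-AS1 overlaps UNC45A in the annotation, and the strand setting of the counting is not given in the sources used here, so reads of the 2 cannot be told apart.

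CHORDC1 (ENSG00000110172, chr11:90200429-90223077, minus strand) encodes morgana, a CHORD domain protein known as a heat shock factor target. EV libraries held 46.5, 43.0 and 49.7 CPM, HSP90α-KO libraries 42.9, 41.0 and 45.0 CPM and HSP90β-KO libraries 44.3, 48.9 and 46.7 CPM, all 3 overlapping. No comparison passed, with -0.11 (95% interval -0.22 to -0.0013, adjusted p = 0.081) in HSP90α-KO, 0.0086 (95% interval -0.100 to 0.12, adjusted p = 0.92) in HSP90β-KO and -0.12 (95% interval -0.23 to -0.0099, adjusted p = 0.056) between them. The value for HSP90α-KO passed without EV replicate 2 (-0.16, adjusted p = 0.0126) or HSP90α-KO replicate 3 (-0.14, adjusted p = 0.0302), under quantile normalization (adjusted p = 0.0496) and under scaling to total reads (0.0155), with a range of 0.0126 to 0.41 over alternatives. The direct contrast passed without EV replicate 2 (adjusted p = 0.0348), HSP90α-KO replicate 3 (0.0196) or HSP90β-KO replicate 1 (0.0292), with the 6 compared libraries alone (0.0405) and under scaling to total reads (0.00308), with a range of 0.00308 to 0.245. Parental and PUHr libraries overlapped at 96.1, 98.4 and 102 and 98.2, 99.0 and 93.5 CPM, and the value was -0.027 (95% interval -0.099 to 0.045, adjusted p = 0.54).

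Members whose groups did not overlap numbered 6 in HSP90α-KO against EV, where 57.3% of all genes tested did the same, 7 in HSP90β-KO against EV beside 46.6%, 7 between the knockouts beside 63.8%, and 8 in PUHr against parental beside 58.5%. The members' median absolute log2 fold change was 0.13, 0.16, 0.14 and 0.078 in the same order, and that of all genes was 0.24, 0.15, 0.28 and 0.21. Among the abundant genes it was 0.15, 0.090, 0.18 and 0.13.

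**Figure D3:**
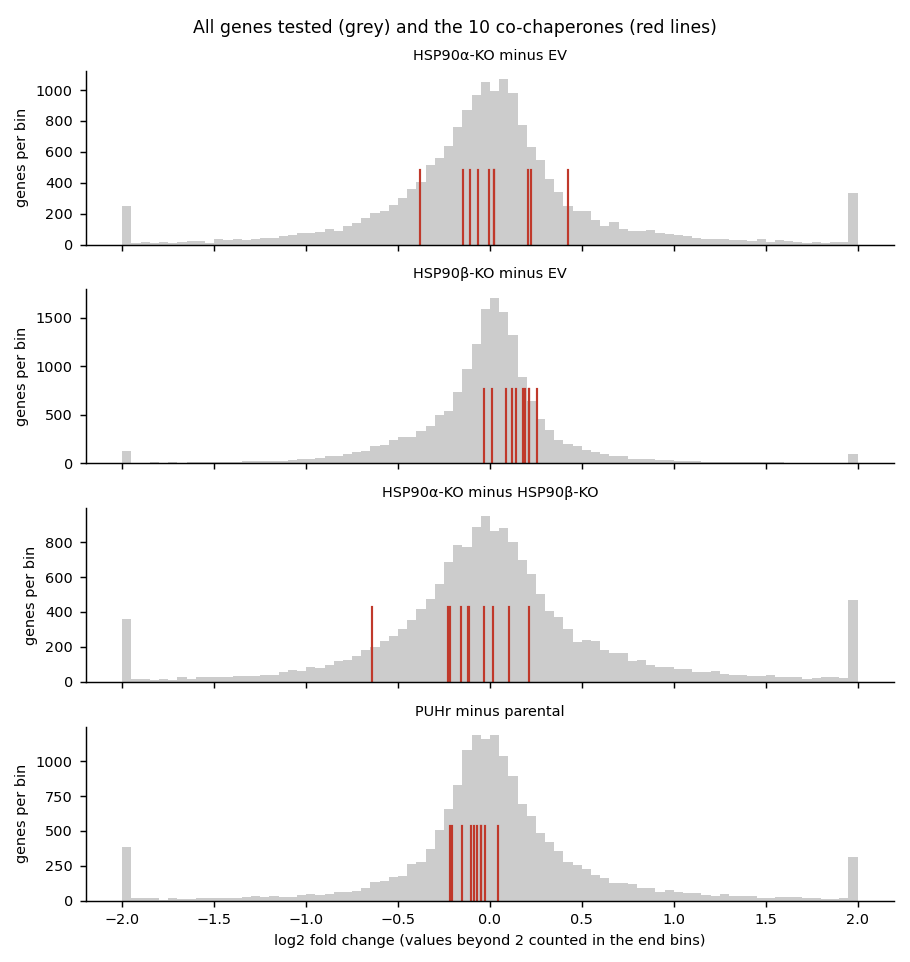
Number of genes by log2 fold change over all genes tested, in bins of width 0.05, with red lines at the 10 co-chaperones. The members lie between -0.38 and 0.42 in HSP90α-KO against EV, and in HSP90β-KO against EV between -0.034 and 0.26.

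Levels of different genes were compared per kilobase of annotated exon. The length counts every annotated exon of a gene, used in these cells or not, so the order depends on it. By CPM alone CHORDC1, with a mean of 46.4 in EV, was above UNC45A, with 38.9. In EV, PTGES3 was the most abundant member with 116 ± 0.835 CPM per kilobase (SD, n = 3), followed by CDC37 with 96.4 ± 2.96 and STIP1 with 54.9 ± 0.354. PPID stood at 30.9 ± 1.43, AHSA1 at 22.9 ± 0.356, FKBP4 at 21.6 ± 0.327, FKBP5 at 17.1 ± 0.363 and PPP5C at 13.0 ± 0.496 CPM per kilobase. UNC45A with 5.18 ± 0.390 and CHORDC1 with 4.18 ± 0.301 were the least abundant, and every neighbouring pair in this order was apart in its range of libraries. HSP90AB1, at 942 ± 7.07 CPM per kilobase, exceeded every member.

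The order changed in HSP90α-KO, where PPID (23.7 ± 1.68) overlapped both FKBP4 (25.2 ± 0.957) and AHSA1 (23.2 ± 0.671 CPM per kilobase). HSP90AA1 itself dropped there to 17.7 ± 0.458 CPM per kilobase, below AHSA1 and above FKBP5 (16.3 ± 0.194). In HSP90β-KO PPID was above AHSA1, with 37.0 ± 0.365 against 25.9 ± 0.616 CPM per kilobase. Parental cells had STIP1 (98.7 ± 1.95) and CDC37 (98.5 ± 2.37) at overlapping levels, likewise FKBP4 (34.5 ± 0.612) and PPID (34.4 ± 1.04), and in PUHr STIP1 and CDC37 still overlapped, with PPID (32.7 ± 0.689) above FKBP4 (29.7 ± 0.451 CPM per kilobase).

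Summed over the 10 genes, the co-chaperone transcripts made up 1550, 1556 and 1558 CPM in EV, 1603, 1582 and 1602 CPM in HSP90α-KO and 1685, 1700 and 1731 CPM in HSP90β-KO. HSP90AA1 and HSP90AB1 together made up 3540, 3465 and 3525 CPM, 3359, 3398 and 3435 CPM and 3157, 3100 and 3099 CPM in the same groups. The ratio of the sums was therefore lowest in EV, at 0.438, 0.449 and 0.442, higher in HSP90α-KO, at 0.477, 0.466 and 0.466, and highest in HSP90β-KO, at 0.534, 0.548 and 0.559, with no overlap of groups. In the resistance table it was 0.370, 0.377 and 0.372 in parental and 0.401, 0.420 and 0.409 in PUHr, where both sums were lower but HSP90 fell more. The HSP90 sum of a knockout group includes transcripts of its edited gene. In HSP90β-KO, HSP90AA1 made up 38.4% to 39.0% of that sum, and the rest was the edited HSP90AB1. The ratio is therefore not one of co-chaperone to intact HSP90 transcripts. These ratios are a description and were not tested.

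**Figure D4:**
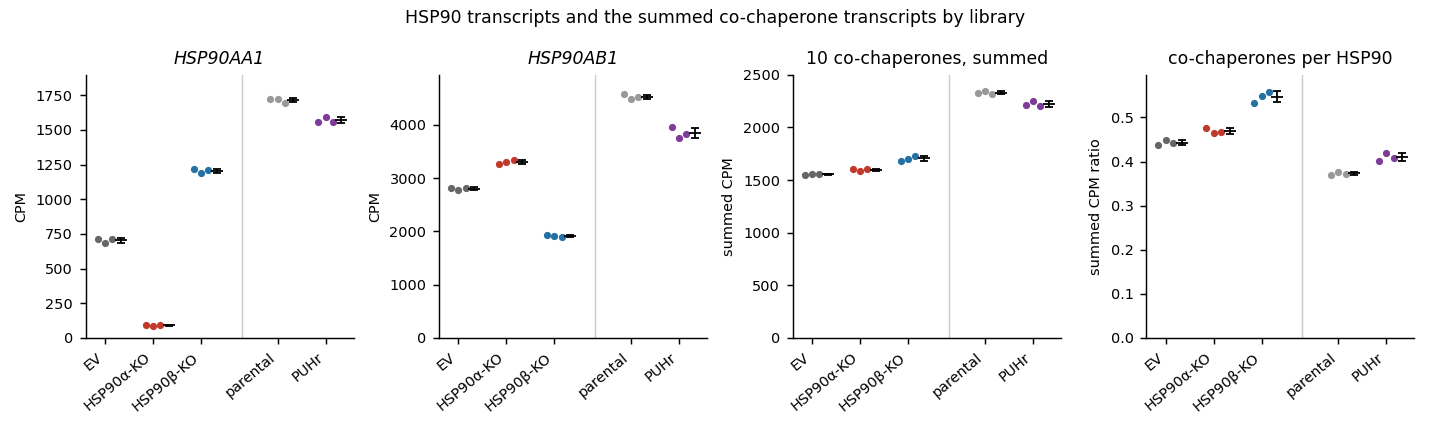
HSP90AA1, HSP90AB1, the summed co-chaperones (CPM) and the ratio of summed co-chaperone to summed HSP90 CPM, by library, with the mean and SD of 3 beside the points. The HSP90β-KO ratios lie between 0.534 and 0.559, above the ratios of EV and HSP90α-KO. The HSP90 sum of a knockout group includes transcripts of its edited gene.

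Promoters were read because several members moved in the same comparison, and were searched for repeats of GAA and TTC, the letters that heat shock factors are known to bind. RefSeq windows of 300 bases (GRCh38.p14) around a transcription start were found for 8 members in 12 windows, and FKBP4 and PPP5C had none. The letters GAANNTTC or TTCNNGAA, each its own reverse complement, were in 2 of the 12 windows, beside 13.5% of all 35116 windows of this length. The 3-unit forms GAANNTTCNNGAA and TTCNNGAANNTTC, on either strand and containing the former, were in 1 of the 12, beside 0.49% of all windows. That window belongs to CHORDC1. Its capitals mark matches, with a run of 23 bases and 5 units that begins 60 bases before the start, and shorter matches that begin 205 and 23 bases before it. STIP1 has 1 match, 13 bases after one of its starts, and PPID, with the largest difference between the knockouts, has none in its window. The 3 are shown 5′ to 3′ on the strand of the gene, CHORDC1 from chr11:90223000-90223299, minus strand, STIP1 from chr11:64185921-64186220, plus strand, and PPID from chr4:158723347-158723646, minus strand.
CHORDC1 promoter: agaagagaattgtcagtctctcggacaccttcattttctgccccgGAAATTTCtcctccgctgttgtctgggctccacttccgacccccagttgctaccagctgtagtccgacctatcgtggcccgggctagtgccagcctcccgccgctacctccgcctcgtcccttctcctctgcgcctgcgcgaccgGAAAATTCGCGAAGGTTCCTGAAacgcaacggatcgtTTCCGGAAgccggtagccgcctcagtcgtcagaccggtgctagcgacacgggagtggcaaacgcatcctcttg
STIP1 promoter: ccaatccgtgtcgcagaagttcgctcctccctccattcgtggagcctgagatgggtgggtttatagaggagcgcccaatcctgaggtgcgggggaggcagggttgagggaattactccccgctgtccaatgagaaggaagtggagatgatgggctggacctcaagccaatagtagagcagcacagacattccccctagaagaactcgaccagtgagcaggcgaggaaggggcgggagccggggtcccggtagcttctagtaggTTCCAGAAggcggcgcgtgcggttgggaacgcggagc
PPID promoter: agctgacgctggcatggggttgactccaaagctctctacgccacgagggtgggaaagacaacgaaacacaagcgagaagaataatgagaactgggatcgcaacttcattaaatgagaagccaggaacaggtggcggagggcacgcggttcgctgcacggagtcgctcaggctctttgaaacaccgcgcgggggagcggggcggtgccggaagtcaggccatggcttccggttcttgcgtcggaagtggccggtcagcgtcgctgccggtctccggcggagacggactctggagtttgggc

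A match is a description of letters, and the windows were not tested against the changes. STIP1's other window has no match.

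The members sit on 7 chromosomes, and the expressed genes around each were read for comparison. Over up to 20 genes on each side, counting those that average at least 1 on the log2 CPM scale, the median log2 fold change around PPID was -0.040 in HSP90α-KO and 0.0068 in HSP90β-KO against EV. Between the knockouts it was -0.13, with 10 of 40 neighbours higher and 19 lower, beside 30.1% and 29.8% of all genes. The window around PPID spanned 27982683 bases. FNIP2, which starts at chr4:158769026, was at -0.25 in HSP90α-KO, 0.14 in HSP90β-KO and -0.39 between the knockouts, with the signs of PPID. In PUHr FNIP2 was at 0.27 and PPID at -0.071. A link between the 2 genes was not tested. Around UNC45A the median was 0.027 in HSP90α-KO, and around FKBP4 in PUHr it was 0.048. In HSP90β-KO the medians around STIP1 and FKBP4, 0.13 and 0.096, lay near the members' own 0.14 and 0.12, as did that around CHORDC1 in HSP90α-KO, at -0.11 beside -0.11. Others had the opposite sign to the member, such as those around PTGES3 in HSP90α-KO and HSP90β-KO, -0.046 and -0.042 beside 0.21 and 0.19, around CDC37 in HSP90α-KO, 0.076 beside -0.14, and around FKBP4 in PUHr. Over the 10 members and 4 comparisons the medians ranged from -0.15 to 0.13.

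By distance over the 3 log2 fold changes against EV and parental, the genes nearest to PPID among 11725 were NCDN, RSKR and SVIP. NCDN had log2 fold changes of -0.39, 0.22 and -0.036 in HSP90α-KO, HSP90β-KO and PUHr, at a Euclidean distance of 0.056. For RSKR they were -0.37, 0.23 and -0.12, at 0.062, and for SVIP -0.40, 0.31 and -0.039, at 0.065.

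The other HSP90 paralogs and the gene lists that follow are given as log2 fold changes beside those of the co-chaperones, and medians in the order HSP90α-KO, HSP90β-KO, the direct contrast and PUHr. HSP90B1, the paralog of the endoplasmic reticulum, was lower in HSP90α-KO, at -0.58 (SE 0.031, adjusted p = 7.3e-15), and by less in HSP90β-KO, at -0.099 (SE 0.031, adjusted p = 0.013). TRAP1, the mitochondrial paralog, did not pass in either knockout, with 0.037 (95% interval -0.033 to 0.11, adjusted p = 0.37) and 0.076 (95% interval 0.0061 to 0.15, adjusted p = 0.086), and was lower in PUHr, at -0.29 (SE 0.029, adjusted p = 9.8e-07), where HSP90B1 was at 0.033 (95% interval -0.011 to 0.076, adjusted p = 0.2).

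A list of 31 other co-chaperones, with 29 tested in each table, had no fitted log2 fold change beyond 1 in any comparison, and medians of 0.058, 0.063, -0.034 and -0.026. In HSP90α-KO 9 rose and 7 fell, beside 27.5% and 26.6% of all genes, with RPAP3 at 0.32 (SE 0.040, adjusted p = 1.5e-07), TTI2 at 0.28 (SE 0.074, adjusted p = 0.002) and SGTB at -0.31 (SE 0.075, adjusted p = 0.00095). In HSP90β-KO 10 rose and 3 fell, beside 17.2% and 17.2% of all genes, led by TOMM70, the mitochondrial import receptor that takes preproteins from HSP90, at 0.60 (SE 0.035, adjusted p = 1.6e-13), with TTI2 at 0.32 (SE 0.074, adjusted p = 0.0012) and the ubiquitin ligase STUB1 at 0.30 (SE 0.059, adjusted p = 0.00024). Between the knockouts 5 were higher and 10 lower in HSP90α-KO, beside 30.1% and 29.8% of all genes, with TOMM70 at -0.49 (SE 0.035, adjusted p = 2.2e-12), STUB1 at -0.42 (SE 0.059, adjusted p = 6.2e-07) and FNIP2 at -0.39 (SE 0.042, adjusted p = 8.6e-09). In PUHr 7 rose and 6 fell, beside 25.6% and 25.8% of all genes, with TSC1 at 0.46 (SE 0.034, adjusted p = 3.7e-08), SGTB at 0.42 (SE 0.057, adjusted p = 2e-05) and NUDC at 0.33 (SE 0.021, adjusted p = 7.1e-09).

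Of 18 heat shock genes, 16 were tested in the knockouts. In HSP90β-KO 2 rose, BAG3 and HSPA4L, and 9 fell, beside 17.2% and 17.2% of all genes, and the medians were 0.042, -0.15, 0.23 and -0.039 in the 4 comparisons. HSPA8, the constitutive HSP70, was at 792, 769 and 811 CPM in EV and 509.7, 499 and 522 CPM in HSP90β-KO, a log2 fold change of -0.63 (SE 0.030, adjusted p = 2.7e-15). HSPD1 was at -0.54 (SE 0.031, adjusted p = 1.9e-13) and DNAJA1 at -0.47 (SE 0.032, adjusted p = 6.9e-12) in HSP90β-KO. HSPA1A, an HSP70 gene that averaged only -0.36 on the log2 CPM scale, was at -1.50 there (SE 0.26, adjusted p = 4.1e-05). In HSP90α-KO 7 rose and 5 fell, beside 27.5% and 26.6% of all genes, with BAG3 higher at 0.66 (SE 0.043, adjusted p = 5.3e-13) and SERPINH1 and HSPA4L lower at -0.77 (SE 0.039, adjusted p = 2.2e-15) and -0.45 (SE 0.050, adjusted p = 2.1e-08). The direct contrast had 10 higher and 5 lower in HSP90α-KO, beside 30.1% and 29.8% of all genes. In PUHr 5 of 15 rose and 6 fell, beside 25.6% and 25.8% of all genes, with BAG3 at -0.43 (SE 0.038, adjusted p = 2.2e-07), HSPA8 at -0.39 (SE 0.019, adjusted p = 4e-10) and HSF2 at 0.38 (SE 0.038, adjusted p = 9.2e-07).

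Steroid receptors are the clients on which FKBP4, FKBP5, PPID and PPP5C are best known to act, and the transcript of NR3C1 changed by more than any co-chaperone did in HSP90α-KO and in PUHr, though not in HSP90β-KO. NR3C1, the glucocorticoid receptor gene, was at 23.9, 23.0 and 21.7 CPM in EV, 2.15, 1.66 and 1.80 CPM in HSP90α-KO and 19.2, 22.4 and 20.6 CPM in HSP90β-KO. It fell in HSP90α-KO, at -3.56 (SE 0.094, adjusted p = 3.2e-21), a 0.0849-fold level, and was at -0.14 (95% interval -0.34 to 0.051, adjusted p = 0.26) in HSP90β-KO, with a direct contrast of -3.42 (SE 0.094, adjusted p = 3.7e-21). In PUHr it was at 1.08, 1.30 and 1.25 CPM against 28.4, 27.2 and 26.7 CPM in parental, at -4.41 (SE 0.10, adjusted p = 1.2e-13). PGR, the progesterone receptor gene, had 96, 93 and 71 reads in parental and 1, 0 and 0 in PUHr libraries, ESR1 and NR3C2 at most 5 in any, and the 3 had no row among the knockouts.

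**Figure D5:**
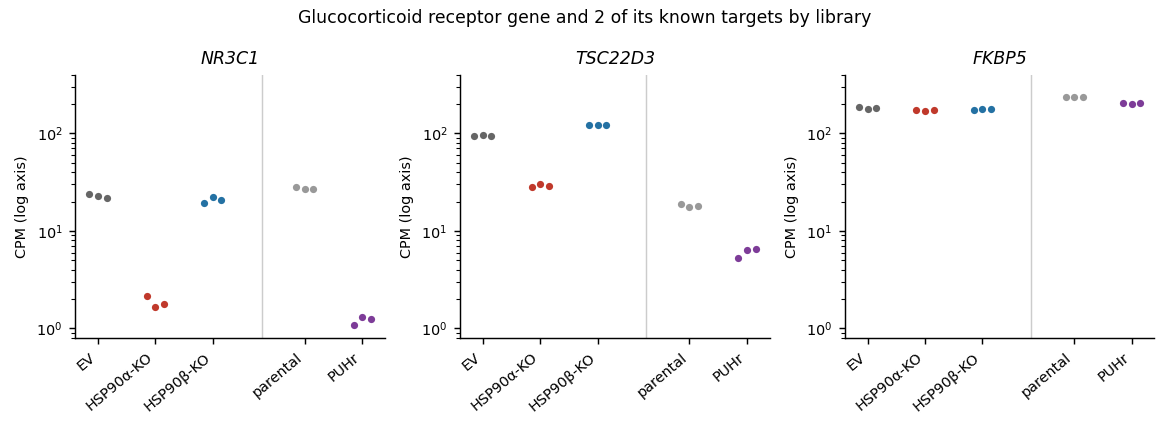
CPM of NR3C1, of TSC22D3 and of FKBP5 on a log axis, with 1 point a library and a grey line between the 2 separately normalized tables. NR3C1 lies between 1.08 and 1.30 CPM in PUHr, while the lowest FKBP5 library is at 171 CPM. TSC22D3 is 1 of 13 listed glucocorticoid-responsive genes tested in PUHr, of which 7 rose and 4 fell.

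Of the other genes known to respond to glucocorticoids, 12 of 14 were tested in the knockout table. In HSP90α-KO 3 rose and 6 fell, beside 27.5% and 26.6% of all genes, and between the knockouts 5 were higher and 6 lower, beside 30.1% and 29.8% of all genes, with medians over the 4 comparisons of -0.14, 0.077, -0.23 and 0.15. TSC22D3, which encodes GILZ, fell from 93.1, 95.04 and 94.4 CPM in EV to 28.3, 30.6 and 29.0 CPM, at -1.68 (SE 0.039, adjusted p = 1.5e-22), while ERRFI1 and SGK1 rose, at 1.06 (SE 0.14, adjusted p = 3.1e-07) and 0.91 (SE 0.052, adjusted p = 3.7e-14). In HSP90β-KO 5 rose and 1 fell, beside 17.2% and 17.2% of all genes, with PER1 at 0.51 (SE 0.079, adjusted p = 1e-05), NFKBIA at 0.49 (SE 0.073, adjusted p = 5.8e-06) and CDKN1C at 0.41 (SE 0.13, adjusted p = 0.016). In PUHr 7 of 13 rose and 4 fell, beside 25.6% and 25.8% of all genes, with TSC22D3 at -1.58 (SE 0.088, adjusted p = 1.5e-09), ZBTB16 at -1.45 (SE 0.12, adjusted p = 1.5e-07) and CDKN1C, whose libraries overlapped, at -1.07 (SE 0.30, adjusted p = 0.0083). The largest rise there was that of ERRFI1, at 1.02 (SE 0.066, adjusted p = 8.6e-09), whose groups did not overlap. FKBP5 stood beside TSC22D3 with a far smaller change in HSP90α-KO (-0.067) and in PUHr (-0.21).

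Among 18 other FKBP and cyclophilin genes, 17 were tested in the knockouts and 18 in PUHr, with medians of -0.042, 0.058, -0.16 and -0.035. In HSP90α-KO 4 rose and 4 fell, beside 27.5% and 26.6% of all genes, and of those that average at least 1 on the log2 CPM scale the 3 with the largest changes were PPIC at -1.38 (SE 0.083, adjusted p = 1.3e-13), PPIB at -0.74 (SE 0.037, adjusted p = 1.7e-15) and FKBP11 at -0.70 (SE 0.063, adjusted p = 5.2e-10). In HSP90β-KO 4 rose and 2 fell, beside 17.2% and 17.2% of all genes, with PPIL1 at 0.41 (SE 0.033, adjusted p = 1.4e-10), FKBP9 at 0.24 (SE 0.050, adjusted p = 0.00038) and FKBP11 at -0.21 (SE 0.063, adjusted p = 0.013). FKBP10, which averages less, had 1, 9 and 7 reads in EV, 8, 10 and 9 in HSP90α-KO and 28, 31 and 49 in HSP90β-KO, and passed at 0.88 (SE 0.36, adjusted p = 0.04) in HSP90α-KO, where the groups overlapped, and 2.44 (SE 0.36, adjusted p = 4.7e-06) in HSP90β-KO. The direct contrast had 1 higher and 9 lower in HSP90α-KO, beside 30.1% and 29.8% of all genes. In PUHr 6 rose and 5 fell, beside 25.6% and 25.8% of all genes, with PPIC higher at 1.61 (SE 0.064, adjusted p = 3.4e-11) and FKBP10 lower at -1.95 (SE 0.13, adjusted p = 1.2e-08), and FKBP9 at 0.53 (SE 0.045, adjusted p = 1.9e-07).

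Of 11 erythroleukemia markers, 10 had a row among the knockouts and 11 among the resistant cells, and 10 were at 1 CPM or more in each library. Their summed level was 1305, 1327 and 1298 CPM in EV, 1284, 1273 and 1220 CPM in HSP90α-KO, 1238, 1254 and 1238 CPM in HSP90β-KO, 3271, 3253 and 3212 CPM in parental and 2561, 2617 and 2520 CPM in PUHr, with TFRC the most abundant. Of 9 markers of other cells, 6 had a row among the knockouts and 9 among the resistant cells, 2 of them at 0 reads. They were led by EPCAM and summed to 80.5, 76.3 and 78.9 CPM in EV, 75.0, 76.6 and 77.5 CPM in HSP90α-KO, 82.5, 88.2 and 82.3 CPM in HSP90β-KO, 97.8, 99.7 and 99.0 CPM in parental and 42.5, 42.8 and 41.0 CPM in PUHr. The part of these differences in the co-chaperone values was not tested.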

How the data were processed

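RNA was sequenced as single-end reads from stranded mRNA libraries of K562 cells. The authors used FASTQ Trimmer, RNA STAR (GRCh38) and featureCounts for trimming, alignment and counting, and deposited log2 CPM values made with edgeR on Galaxy; versions, the annotation and the strand setting are not given in the sources used here. Whole reads were recovered from these values, with a largest deviation of 0.001322 reads and a mean prior count of 1.987, and fold changes of low genes are understated on that scale. Rows without an identifier, 30 in the knockout and 114 in the resistance table, were left out. Parental columns spelled DSMO were read as DMSO.

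The test took genes that reached -1 on the log2 CPM scale in 3 libraries, which left 17039 and 16503, and used limma 3.58.1 (R 4.3.3) with the trend option, each table fitted once, and Benjamini-Hochberg adjustment over all of them. The steps were tested on simulated data. Tests were made within a table alone. Lengths are unions of GENCODE v44 exons. Promoters are from RefSeq. Named are the members, the targets, the HSP90 paralogs, steroid receptors, up to 3 genes of each other list with the largest absolute log2 fold change in a comparison among those that passed with a mean log2 CPM of at least 1, and the 3 genes nearest to PPID. A few other genes of the lists are named beside these, for their direction, their position or a low level. The members and lists were chosen with earlier results of these data known. Alternatives were other filters, pseudocounts, scalings, variance models, thresholds and sets of libraries, a replicate block, and leaving out each library. Voom on recovered reads and scaling to total reads were added after seeing the data.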

Additional observations from a re-analysis of the deposited data

How the results depend on the processing

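Over 22 alternatives in the knockout table, the count of members that passed in limma ranged from 4 to 7 in HSP90α-KO against EV, from 6 to 8 in HSP90β-KO against EV and from 6 to 8 between the knockouts. Over 18 alternatives it ranged from 3 to 8 in PUHr against parental, with 8 lower under median centring and 3 lower without the intensity trend, beside 5; the cause was not tested. No member passed the fold threshold under any of them. Of 800 fold changes of single members, 744 kept their direction and their side of the threshold, 25 passed newly, 11 no longer passed and 20 changed sign.

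Of those that changed sign, the PTGES3 contrast of the knockouts passed under quantile normalization, at -0.11. Under quantile normalization AHSA1 and STIP1 in HSP90α-KO were at -0.0092 and -0.049, CHORDC1 in HSP90β-KO at -0.0053 and STIP1 in PUHr at 0.0035. Under scaling to total reads AHSA1 and STIP1 in HSP90α-KO were at -0.021 and -0.016, the PTGES3 contrast of the knockouts at -0.049, and AHSA1, UNC45A and CHORDC1 in PUHr at 0.011, 0.0069 and 0.031. Under median centring CHORDC1 in HSP90β-KO was at -0.034, the FKBP5 contrast of the knockouts at 0.010 and PTGES3 in PUHr at -0.0021. Without EV replicate 2, PPP5C in HSP90α-KO was at 0.027 and CHORDC1 in HSP90β-KO at -0.045. Without HSP90α-KO replicate 3, AHSA1 and PPP5C there were at -0.0041 and 0.012 and the PTGES3 contrast at -0.0080. Without HSP90β-KO replicate 2, CHORDC1 was at -0.026. The cause was not tested.

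With each library left out in turn, values ranged from -0.0041 to 0.035 for AHSA1 in HSP90α-KO, -0.026 to 0.027 for PPP5C in HSP90α-KO, -0.045 to 0.059 for CHORDC1 in HSP90β-KO and -0.0080 to 0.042 for PTGES3 between the knockouts. With the replicate number as a replicate block, 5, 7, 7 and 5 members passed in the 4 comparisons, the same counts as without it. Deviations of libraries with the same number correlated between -0.0481 and 0.0449, so the numbers were not read as pairs.

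Among all genes that passed in HSP90β-KO against EV, 2134 were higher and 3673 lower under median centring and 3588 and 2589 under scaling to total reads, beside 2938 and 2926. In PUHr, 5353 were higher and 3294 lower under scaling to total reads and 3514 and 5203 under median centring, beside 4221 and 4259. Voom on recovered reads gave 4716 higher and 4443 lower in HSP90α-KO, 3133 and 3035 in HSP90β-KO, 5152 and 5028 between the knockouts and 4176 and 4267 in PUHr. The lowest level of a member in a library was 35.9 CPM, for UNC45A in EV, against at most 0.0518 CPM for 1 read.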

Other observations

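Some levels differed between the control groups of the 2 tables, which were normalized separately, so no test was made. AHSA1 was at 68.6, 66.6 and 67.2 CPM in EV and 161, 162 and 166 CPM in parental libraries. STIP1 was at 252, 251 and 255 against 459, 459 and 444 CPM, and CHORDC1 at 46.5, 43.0 and 49.7 against 96.1, 98.4 and 102 CPM. HSPA8, the constitutive HSP70, was at 792, 769 and 811 CPM in EV and 2874, 2834 and 2832 CPM in parental libraries. All parental libraries lay above all EV libraries for these 4 genes.

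Of 40 expressed neighbours of HSP90AA1, 20 on each side, 31 passed as higher and 3 as lower in HSP90β-KO against EV in limma's test, beside 17.2% and 17.2% of all genes, with a median log2 fold change of 0.55, and HSP90AA1 itself was at 0.78. In PUHr, of 40 neighbours 23 passed as higher and 5 as lower, beside 25.6% and 25.8% of all genes, with a median of 0.20 while HSP90AA1 was at -0.13.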
